A study of Mus musculus with 12 samples.

Results

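The genes that encode the proteins of the cytosolic ribosome were followed through the cerebellum of 12 mice, 6 wild type (WT) and 6 carrying a Crfr1 knockout made with the Δα6-Cre driver (cKO). Members were chosen by name: every row of the count table whose symbol begins with Rpl or Rps and a digit, together with Rplp0, Rplp1, Rplp2 and Rpsa, but without the Rps6k kinases, the rows marked as pseudogenes (-ps) and the names ending in bp or rt. The rule took 84 of the 18394 rows, 50 of the large subunit and 34 of the small. Of a list of 77 standard ribosomal proteins encoded by genes with such names, 76 were found, 45 large and 31 small. Rpl26 was not analysed here. The other 8 members were 7 paralogs with a ribosomal protein name (Rpl3l, Rpl7l1, Rpl22l1, Rpl36al, Rpl39l, Rps4l and Rps27l) and Rps19bp1, which the rule takes in by its spelling although it encodes a protein that binds Rps19 and is not a part of the ribosome.

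Each library came from the RNA of a fresh cerebellum, was prepared by a stranded mRNA protocol, and shared its sequencing lanes with the others. Crfr1, listed as Crhr1, is a receptor for corticotropin-releasing factor, and the name of the driver points to Gabra6, whose product, a subunit of GABA-A receptors, is typical of cerebellar granule cells. The labels give no age, sex or litter, name no group with the driver and an intact Crfr1, and do not say which part of Crfr1 was deleted. An effect of the driver and one of the receptor's loss cannot be told apart, nor, in RNA of a whole cerebellum, fewer cells of a type and less RNA per cell.

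A ribosome is built from a large subunit, which joins amino acids, and a small subunit, which reads the messenger RNA, and each carries its own set of proteins around ribosomal RNA. Cells make these proteins in matched amounts, since surplus ones are degraded. Their messenger RNAs commonly begin with a run of C and T bases, the terminal oligopyrimidine (TOP) tract, through which mTOR signalling and the binding protein LARP1 set how strongly they are translated. The level of a ribosomal protein mRNA, which is what was measured, does not report that translation. In neurons these mRNAs belong to the abundant transcripts of the cell body and are also found in axons and dendrites.

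What members share in sequence was looked up first, since the rule used names alone. RefSeq start sites (GRCm38.p6) were matched by symbol for 63 of the 84, and the first listed start of a symbol was used. The longest run of only C and T on the coding strand that touched the bases from -20 to +20 of the start had a length of 8 or more in 30 of these 63 promoters (47.6%), against 20.8% of 27025 promoters of all genes. A run of 12 or more was found in 11 (17.5%), against 5.51%. Over the 250 bases before and 50 after the start, and on both strands, the letters GGGCGG stood in 61.9% of member promoters (35.9% of all), CCGGAAG in 38.1% (9.12% of all) and TATAAA in 9.52% (14.2% of all). These are matches of letters, which are no measurement of binding. Start sites were not mapped in these data, so a short run at the annotated start does not show that a TOP tract is absent. The windows below run from 30 bases before the start to 20 after it, and the run is in capitals. The first 5 have some of the longest runs of each subunit, and the last 3 are members described further on whose longest run is short.
Rpl7a: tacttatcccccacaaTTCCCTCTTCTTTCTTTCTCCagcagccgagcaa
Rpl27a: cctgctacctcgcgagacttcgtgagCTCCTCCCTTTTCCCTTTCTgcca
Rpl35: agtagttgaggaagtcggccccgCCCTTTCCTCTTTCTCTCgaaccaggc
Rps25: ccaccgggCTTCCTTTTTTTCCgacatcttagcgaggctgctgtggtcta
Rps10: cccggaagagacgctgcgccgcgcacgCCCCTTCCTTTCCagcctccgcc
Rpl24: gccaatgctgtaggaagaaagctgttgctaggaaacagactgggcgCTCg
Rpsa: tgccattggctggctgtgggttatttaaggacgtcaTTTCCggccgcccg
Rps3a1: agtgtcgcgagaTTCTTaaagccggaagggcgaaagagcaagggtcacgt
Rpl7a is read at chr2:26910777-26910826, plus strand, and Rpl27a at chr7:109519165-109519214, plus strand. Rpl35 is read at chr2:39005112-39005161, minus strand, and Rps25 at chr9:44407684-44407733, plus strand. Rps10 is read at chr17:27635225-27635274, minus strand, and Rpl24 at chr16:55966245-55966294, plus strand. Rpsa is read at chr9:120127736-120127785, plus strand, and Rps3a1 at chr3:86142649-86142698, minus strand.

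No ribosomal protein gene passed the test for a difference between the genotypes. Of the 84 members, 82 passed the filter on low counts, 48 of the large and 34 of the small subunit, and 0 of them had an adjusted p under 0.05 in edgeR's quasi-likelihood test with Benjamini-Hochberg adjustment over 15467 genes, where 2.64% of all tested genes did. DESeq2 and limma-voom also called 0. Unadjusted, 8 of 82 had a p under 0.05, and all 8 were higher in cKO, beside 7.16% of all genes higher and 7.08% lower at that level. The number of members whose 6 libraries of one genotype all lay beyond the other 6 was 0, beside 2.09% of all genes. In the authors' deposited table, which comes from DESeq2, 0 of the 82 members with an adjusted p had one under 0.05.

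The estimates were narrow, so that the size of any difference was bounded from both sides. The 95% interval of the fold change lay within 1.2-fold up or down for 79 of the 82 tested members, and within 1.1-fold for 68 of them, 45 of the 48 large-subunit and 23 of the 34 small-subunit genes. Of all 15467 tested genes, 11489 had intervals within 1.2-fold and 7457 within 1.1-fold. Of the 10009 genes in the level range of members at 1 CPM or above, 9649 had intervals within 1.2-fold and 6985 within 1.1-fold. The 3 members outside 1.2-fold were Rpl34, Rps27 and Rpl3l, each measured at under 1 CPM (counts per 1e6 of the scaled library total). The median log2 fold change of cKO against WT was 0.016 for the large subunit and 0.032 for the small, beside -0.00027 for all genes. Positive estimates were found for 62 of 82 members (75.6%), 36 large and 26 small, beside 49.8% of all genes. With 3 surrogate variables in the fit, 52 of 82 were positive (63.4%, beside 49.1% of all genes). Of these 82, 1 was higher and 1 lower at an unadjusted p under 0.05 in edgeR's test. In that fit 4.67% of all genes were higher and 4.97% lower at this level. With counts thinned to the depth of the smallest library, 56 of 81 were positive (69.1%, beside 49.7%). At that p level 6 were higher and 1 lower, beside 6.84% of all genes higher and 6.61% lower in the thinned counts. With 1 library left out at a time, 52 to 65 of 82 were positive, the fewest without cKO 4 and then 57 without cKO 5. Leaving out both cKO 4 and cKO 5, which were chosen because their summed member levels were the highest, lowers the cKO side by construction; 44 of 82 members (53.7%) were then positive beside 51.5% of all genes, with medians of -0.0038 for the large and 0.012 for the small subunit.

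**Figure D1:**
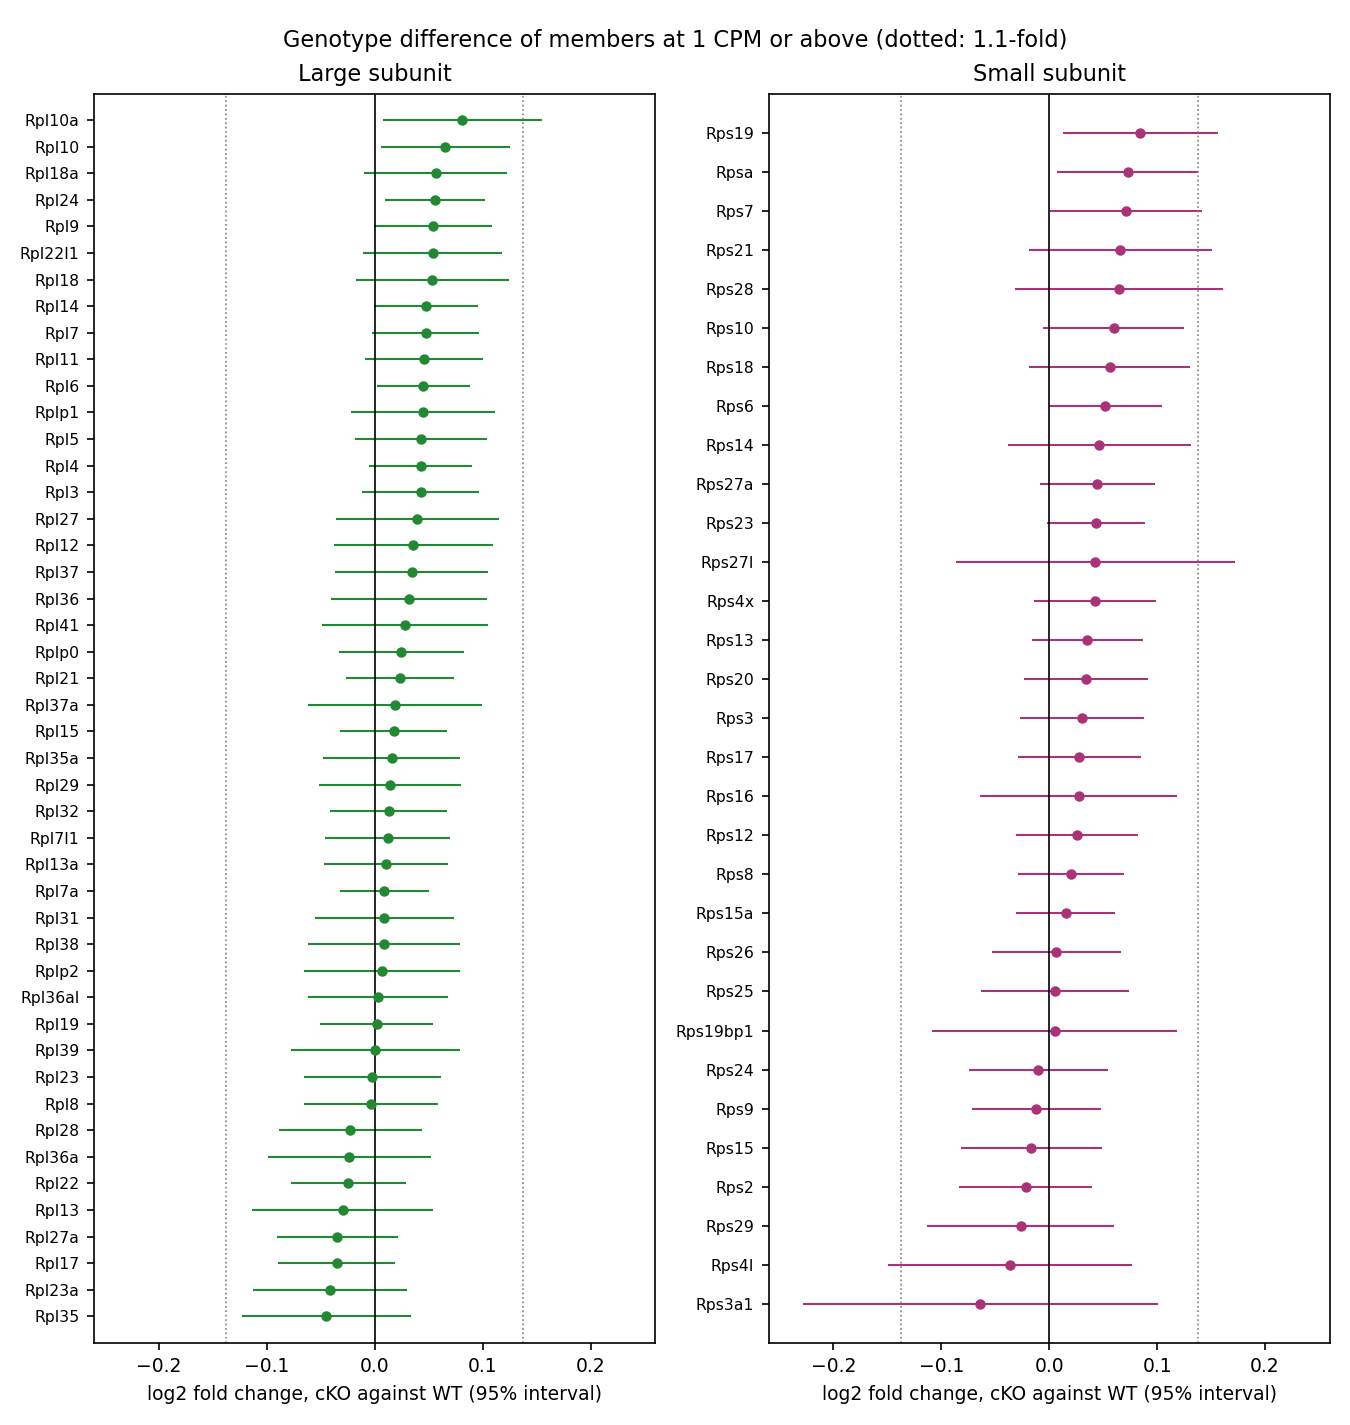
Log2 fold change of cKO against WT with its 95% interval for 77 members at 1 CPM or above, large subunit on the left and small on the right, ordered by estimate, with dotted lines at 1.1-fold. The estimates shown lie between -0.064 (Rps3a1) and 0.085 (Rps19), and most intervals cross 0.

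Large-subunit proteins near the catalytic core overlapped between the genotypes. Rpl4, which lines the exit tunnel and was measured from the largest counts of all members, stood at 310 ± 9.12 CPM in WT and 320 ± 4.43 CPM in cKO (SD, n = 6). Its log2 fold change was 0.042 (SE 0.023, edgeR quasi-likelihood adjusted p = 0.420). Rpl3, which reaches towards the site of peptide bond formation, measured 246 ± 9.57 CPM in WT and 253 ± 4.21 CPM in cKO (SD, n = 6), a log2 fold change of 0.042. Rpl8, also close to that site, stood at 188 ± 6.64 CPM in WT and 187 ± 7.72 CPM in cKO (SD, n = 6).

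Rpl24, whose protein forms a bridge to the small subunit, had the smallest p of the large subunit (chr16:55966275-55971435, plus strand, mm10). Its WT libraries ran from 94.0 over a median of 94.9 to 99.5 CPM, and its cKO libraries from 99.1 over 99.4 to 101.4 CPM. WT 1 lay within the cKO range, WT 3 just below it at 98.9 CPM, and the other 4 WT libraries at 95.4 CPM or less, so the groups overlapped. Its log2 fold change of 0.056 had an SE of 0.022 and a 95% interval from 0.0092 to 0.10 (edgeR quasi-likelihood adjusted p = 0.243), a difference of 3.93%. Rpl10a, a protein of the L1 stalk through which spent transfer RNA leaves, had libraries from 46.6 over 48.6 to 51.4 CPM in WT and from 49.0 over 52.1 to 55.9 CPM in cKO. The top cKO value was that of cKO 5, and the groups overlapped (log2 fold change 0.081, SE 0.035, edgeR adjusted p = 0.292). Rpl10, which joins late in maturation, went from 112.8 over 118.6 to 128.2 CPM in WT and from 121.1 over 125.2 to 127.9 CPM in cKO. Its highest library was a WT one, WT 6 (log2 fold change 0.066, SE 0.028, edgeR adjusted p = 0.293). Rpl6 was the fourth large-subunit gene with an unadjusted p under 0.05 and had a log2 fold change of 0.045 (SE 0.020, edgeR adjusted p = 0.328). Its WT libraries ran from 136.7 over 138.1 to 142.3 CPM and its cKO libraries from 139.2 over 143.8 to 145.1 CPM, with 5 of the 6 cKO libraries above all WT libraries and cKO 6 within the WT range.

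On the lower side no large-subunit gene reached an unadjusted p of 0.05. Rpl17, another protein of the exit tunnel, measured 138 ± 4.51 CPM in WT and 135 ± 3.50 CPM in cKO (SD, n = 6), a log2 fold change of -0.035. Rpl27a had one of -0.035, Rpl23a of -0.041 and Rpl35, at the mouth of the tunnel, of -0.045 (SE 0.037, edgeR adjusted p = 0.650). For Rpl35 the estimate was 0.0026 with 3 surrogate variables in the fit. The stalk proteins that recruit elongation factors, Rplp0, Rplp1 and Rplp2, had log2 fold changes of 0.025, 0.045 and 0.0068. Rpl5 and Rpl11, which carry the small 5S RNA into the ribosome and bind Mdm2 when assembly fails, had 0.043 and 0.046, with edgeR adjusted p-values of 0.551 and 0.455.

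In the small subunit 4 members had an unadjusted p under 0.05, all higher in cKO, and Rps19, Rpsa and Rps7 are described here. Rps19, mutated in the inherited anaemia named after Diamond and Blackfan, is on chr7:24884371-24889806 (plus strand). It measured 61.1 ± 2.17 CPM in WT and 64.9 ± 3.30 CPM in cKO (SD, n = 6). Its log2 fold change of 0.085 had an SE of 0.034 and a 95% interval from 0.013 to 0.16 (edgeR quasi-likelihood adjusted p = 0.254), a difference of 6.04%. Its highest values were those of cKO 5 and cKO 4, 69.1 and 68.3 CPM.

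Rpsa, also known as the laminin receptor, ran from 194.0 over 205.7 to 214.6 CPM in WT and from 201.8 over 213.6 to 230.0 CPM in cKO, and the groups overlapped (log2 fold change 0.073, SE 0.031, edgeR quasi-likelihood adjusted p = 0.291). Rps7 was higher by 0.071 on the log2 scale with an edgeR adjusted p of 0.350. Its libraries WT 3, WT 1 and WT 4, at 86.7, 93.9 and 95.3 CPM, lay under the cKO range of 99.6 to 104.3 CPM. WT 2, WT 5 and WT 6, at 101.2, 101.1 and 101.7 CPM, lay within it. Rps6, the target of the S6 kinases downstream of mTOR, was not among the 4, with an unadjusted p of 0.0514 in edgeR's quasi-likelihood test. It measured 85.02 ± 2.39 CPM in WT and 88.2 ± 2.09 CPM in cKO (SD, n = 6), a log2 fold change of 0.052 (edgeR adjusted p = 0.356).

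The balance of the subunits was compared through summed levels, as a description with no test. Large-subunit members summed to 4821 ± 35.9 CPM in WT and 4894 ± 96.9 CPM in cKO (SD, n = 6), and small-subunit members to 3150 ± 56.9 and 3211 ± 70.0 CPM. The means of the groups differed by 72.6 CPM for the large and 60.9 CPM for the small subunit, and by 1.67% for both together. Both subunits together made up 0.788% to 0.828% of the counts of a library. The ratio of the large to the small sum was 1.531 ± 0.0217 in WT and 1.524 ± 0.00718 in cKO (SD, n = 6). All 6 cKO ratios, 1.514 to 1.534, lay inside the WT range of 1.492 to 1.554, whose ends were WT 6 and WT 3. The cKO libraries with the highest sums, cKO 4 and cKO 5, had ratios of 1.524 and 1.523.

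**Figure D2:**
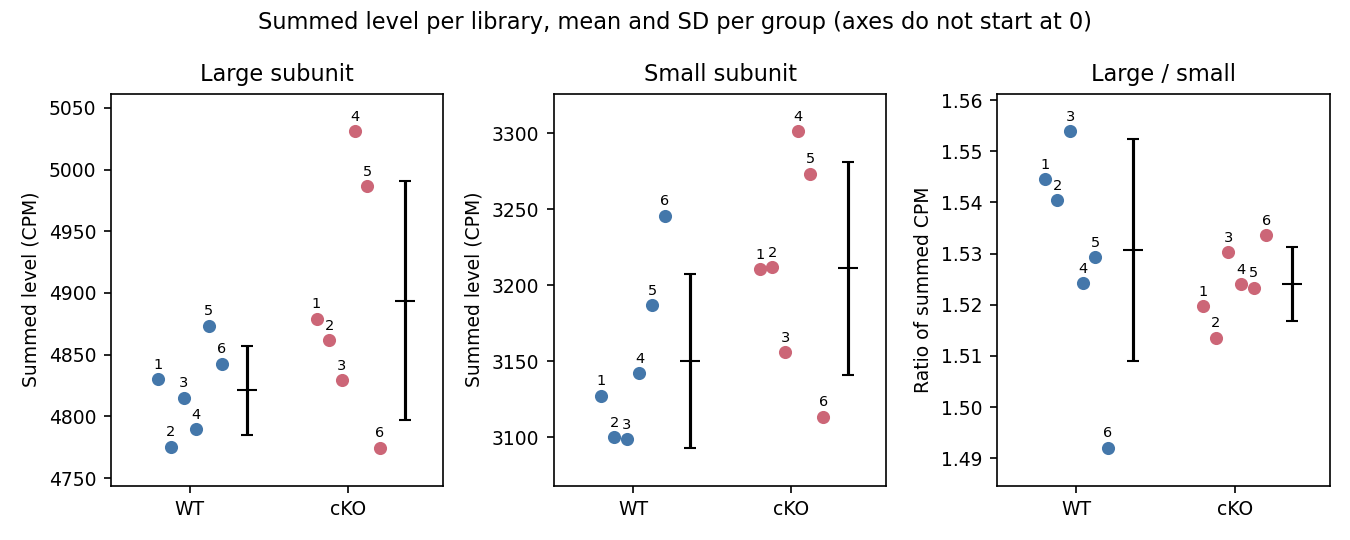
Summed CPM of the large-subunit members, of the small-subunit members and their ratio in each library (points, numbered by replicate), with the mean and SD of 6 libraries per group; the axes do not start at 0. cKO 4 and cKO 5 have the highest sums of both subunits, cKO 6 lies at the low end, and the ratios of the groups overlap.

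Libraries of a genotype differed from each other by more than the genotype means did. Summed over all members, WT libraries ran from 7875 to 8088 CPM, cKO 1 to cKO 3 from 7985 to 8090 CPM, and cKO 4 and cKO 5 reached 8332 and 8259 CPM, while cKO 6 had 7888 CPM. In cKO 4, 79 of 82 members lay above their own mean over the 12 libraries, all 48 of the large subunit among them, with a median deviation of 0.054 on the log2 scale. In cKO 5 it was 59 of 82, with a median deviation of 0.051, and that library held the highest value of 27 members. In cKO 6 only 18 of 82 lay above their mean. The summed level differed between the groups by 0.024 on the log2 scale, and by 0.017 to 0.032 with 1 library left out at a time, lowest without cKO 4 and highest without cKO 6.

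Other genes were followed in the same libraries. A set of 2180 non-members had levels in the range of members at 1 CPM or above and transcripts of 393 to 1929 bases. These lengths leave out the shortest and longest members. The median length of the set was 1418 bases, against 777.5 for members at 1 CPM or above. Of the 2180, 66.9% lay above their mean in cKO 4, 58.8% in cKO 5 and 33.6% in cKO 6. Their median deviations were 0.023, 0.024 and -0.020. Short genes of oxidative phosphorylation deviated by 0.063 in cKO 4, 0.0051 in cKO 5 and -0.055 in cKO 6. Markers of the choroid plexus, a secretory tissue next to the cerebellum, deviated by -0.89 in cKO 4, 0.19 in cKO 5 and 1.52 in cKO 6. They were about as low in cKO 1 and cKO 2 as in cKO 4, at -0.71 and -0.86, where the members' median deviations were 0.0086 and -0.0054. Their summed level ran from 222 to 669 CPM in WT and from 161 to 1066 CPM in cKO, with 0 of the 10 markers at 0. With a score of choroid plexus and forebrain or midbrain markers as a covariate, 0 members were called and 61 of 82 were positive. The part of choroid plexus tissue and the part of transcript length in the members' levels were not tested.

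**Figure D3:**
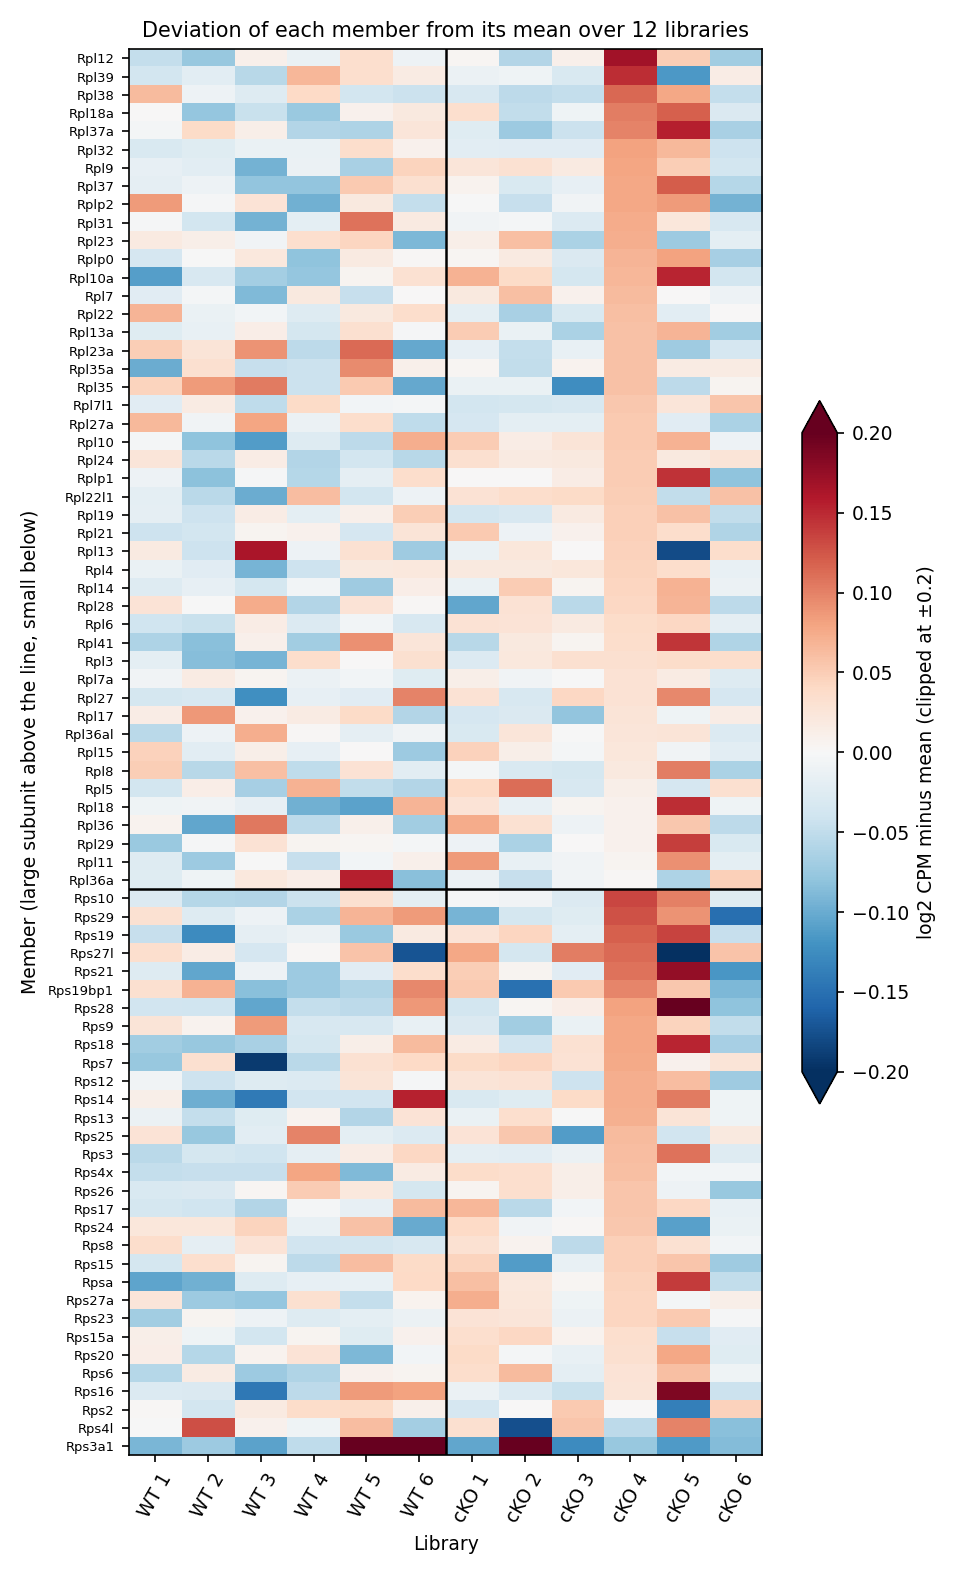
Deviation of log2 CPM from the mean over the 12 libraries for 77 members at 1 CPM or above (rows; large subunit above the horizontal line, small below; WT left of the vertical line, cKO right), coloured from blue (lower) to red (higher) and clipped at 0.2. The column of cKO 4 is red in nearly every row, and the bottom row, Rps3a1, is high in WT 5, WT 6 and cKO 2 only.

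Within a library the members did not all follow the same course. The first principal component of the 79 members at 1 CPM or above took 38.6% of their variance, with loadings of 1 sign for 63 of 79. Small-subunit genes such as Rps28, Rps21, Rps16 and Rps18 had high loadings, as did Rpl10a of the large subunit (0.191). The small subunit also had loadings of the other sign, such as those of Rps27l (-0.159) and Rps2 (-0.101). The highest score on this component was that of cKO 5. Rps28, a protein at the exit of the messenger channel, had 35.6 CPM in cKO 5, while its other libraries lay between 28.6 and 32.6 CPM. Rps16, which touches the transfer RNA at the peptidyl site, had 63.6 CPM in cKO 5 and 59.2 and 59.1 CPM in WT 5 and WT 6, and 50.6 to 56.9 CPM elsewhere. Rpl13 went the other way, with its lowest value, 119.4 CPM, in cKO 5 and its highest, 151.4 CPM, in WT 3. Without cKO 5 the log2 fold change of Rps16 was -0.0093, against 0.028 with all libraries.

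The spread of libraries about their group means was small for most members. The median SD was 0.055 on the log2 scale for the large subunit and 0.059 for the small, beside 0.076 for all tested genes and 0.061 for the 10009 genes in the level range of members at 1 CPM or above. Rpl7a, a large-subunit protein, varied least, with an SD of 0.017 and means of 142 ± 1.38 and 143 ± 1.92 CPM (SD, n = 6). Of the members at 10 CPM or above, Rps3a1 varied most, with an SD of 0.17, followed by Rps19bp1 (0.089), Rps16 (0.087), Rps4l (0.086), Rps28 (0.086) and Rps29 (0.085).

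Rps3a1 encodes a protein of the small subunit's platform, near the exit of the messenger, and is on chr3:86137940-86142702 (minus strand). Its values formed separate levels by library and not by genotype. It was 108.6 to 114.3 CPM in 9 libraries, and 140.3 CPM in WT 5, 141.6 CPM in WT 6 and 148.5 CPM in cKO 2. No library lay between, a gap of 0.295 on the log2 scale. Of 10347 genes at 10 CPM or above, 0.213% had a gap as large with at least 3 libraries on each side. The genotypes did not separate (121.7 ± 15.02 CPM in WT and 116.8 ± 15.6 CPM in cKO, SD, n = 6; log2 fold change -0.064, SE 0.078, edgeR quasi-likelihood adjusted p = 0.786).

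In the neighbourhood of Rps3a1 the size of each gene's largest gap was looked up, but not which libraries lay on each side. Of 11 tested genes within 1 Mb, the nearest protein-coding ones at 10 CPM or above, Sh3d19 and Lrba, had largest gaps of 0.064 and 0.058. Snord73a, a small nucleolar RNA gene inside Rps3a1, had one of 0.329 at 0.247 CPM. Rnu73b, also inside it, had 0.184 at 0.269 CPM. Cd1d1 had 0.218 at 0.310 CPM and Mab21l2 0.162 at 2.72 CPM, and the remaining neighbours had 0.092 or less. Whether any neighbour shared the pattern was not tested. The genes whose log2 levels followed Rps3a1 most closely over the 12 libraries were Trim35 (Pearson r 0.807), Fstl4 (0.801), Gcfc2 (0.788), Mrpl3 (0.785) and Zkscan6 (0.766), out of 10346 compared. These are the top of a long list over 12 libraries and are given as a description. Of the 50-base stretches of the Rps3a1 transcript, 71.0% also occurred in another annotated gene, so reads of copies could enter or leave its count; the part of this in the pattern was not tested.

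**Figure D4:**
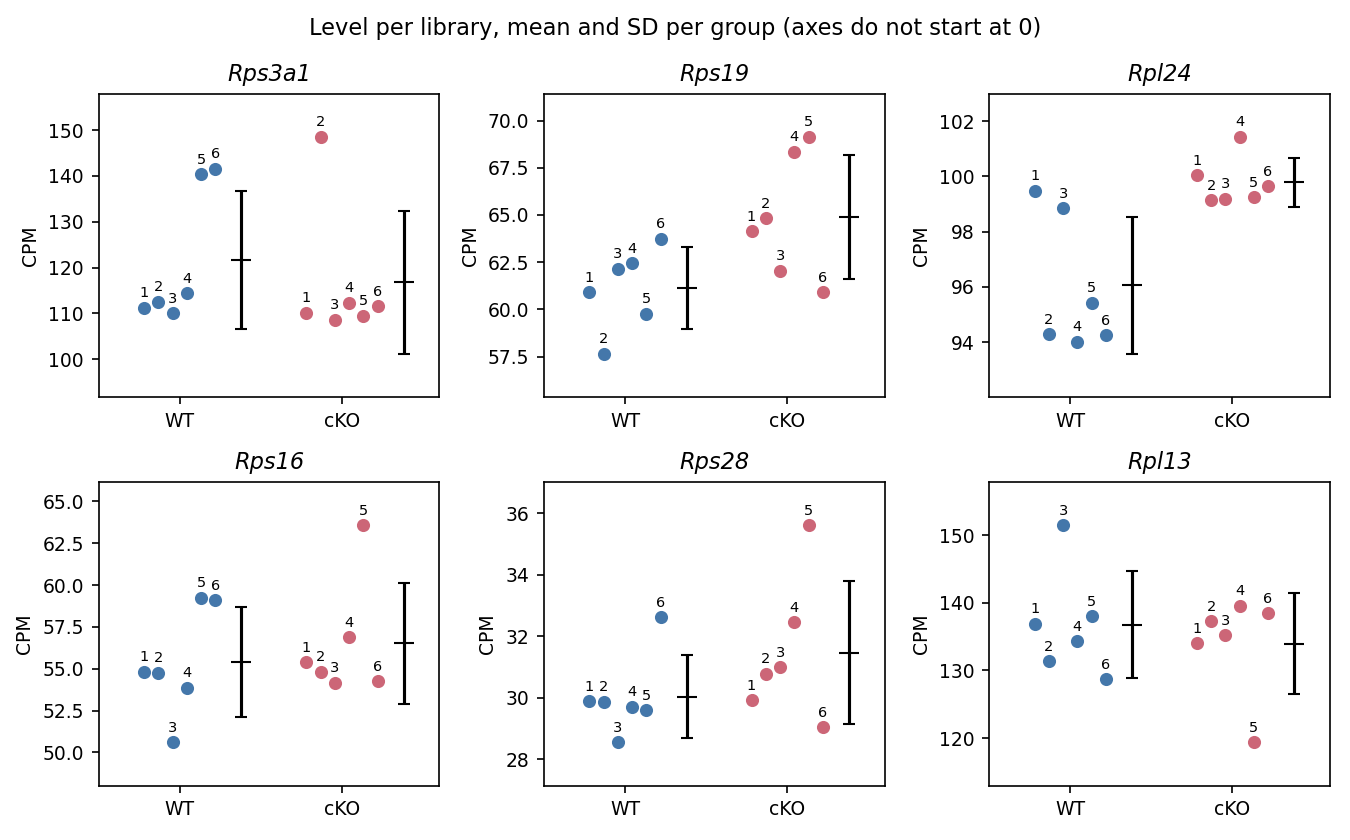
CPM of 6 members in each library (points, numbered by replicate), with the mean and SD of 6 libraries per group; the axes do not start at 0. Rps3a1 stands at 140.3 CPM or above in WT 5, WT 6 and cKO 2 and at 114.3 CPM or below elsewhere, whereas Rps19 and Rpl24 overlap between the groups with cKO 4 among their highest values and Rps16, Rps28 and Rpl13 have cKO 5 at an end of their range.

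Levels of different genes were compared per length, as CPM per kb of transcript. Among 73 standard members at 1 CPM or above, the median was 126 CPM per kb for 43 large-subunit genes (interquartile range 86.6 to 171) and 118 for 30 small-subunit genes (95.5 to 178). The large-subunit genes ran from 58.5 for Rpl35 to 289 for Rplp1, a 4.93-fold range. The small-subunit genes ran from 16.0 for Rps20 to 269 for Rps29. Rps20 and Rps15a, at 34.5, were the only 2 whose chosen transcript model was longer than 3 kb, which lowers a value per kb.

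A few standard genes were almost absent from the table's counts. Rpl30 had 0 to 13 counts per library and did not pass the filter, Rpl34 had 11 to 33 and Rps27 had 12 to 31. Rpl34 measured 0.556 ± 0.0904 CPM in WT and 0.405 ± 0.132 CPM in cKO (SD, n = 6), with a log2 fold change of -0.45 (SE 0.22, edgeR quasi-likelihood adjusted p = 0.361). Per length Rpl34 had 1.0 and Rps27 1.4 CPM per kb, below the other 73 standard members. All 3 encode standard parts of the ribosome, and whether such counts report the level of the mRNA was not tested. Much of their sequence is shared: 98.6% of the 50-base stretches of Rps27, 76.4% of those of Rpl30 and 50.6% of those of Rpl34 also occur in another annotated gene.

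Shared sequence was common throughout the family, which has many processed pseudogenes. Over 81 tested members with a coding transcript model the median share was 54.5%, and 47 (58.0%) shared at least 50% of their stretches, against 3.92% of all tested genes. Rpl35 and Rpl5, with 95.1% and 93.8%, were counted at 55.3 and 140 CPM, or 58.5 and 68.5 CPM per kb. Both values per kb lay below the lower quartile of the large-subunit genes, 86.6. No source used here names the tool that counted reads or its handling of reads with several matches, so how much of a member's count was lost to or gained from copies was not tested. Of the 82 members, 31 (37.8%, beside 8.62% of all genes) host a small non-coding RNA in an intron.

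**Figure D5:**
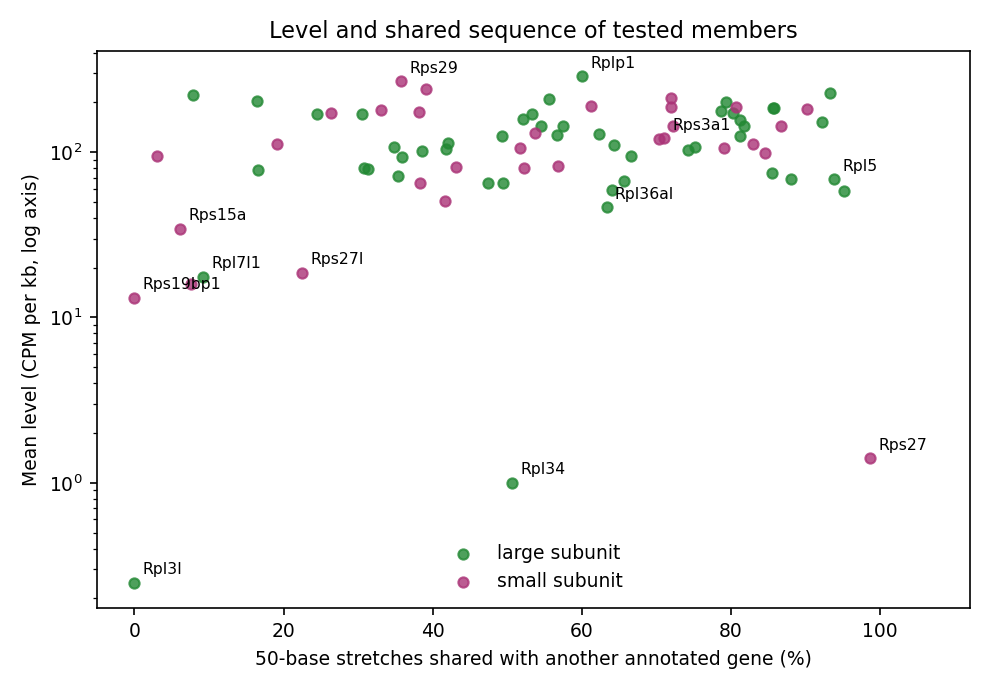
Mean level in CPM per kb (log axis) against the percent of 50-base stretches of the transcript that also occur in another annotated gene, for tested members with a coding model, coloured by subunit. Rpl34 and Rps27 lie far below the other standard members, and Rpl5, with 93.8% shared, lies among those others.

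The paralogs were counted at lower levels per length than most standard members. Rpl22l1 had 67.0 CPM per kb, Rpl36al 46.5, Rps27l 18.7 and Rpl7l1 17.6, and Rps19bp1, no ribosomal protein, 13.2. Rpl3l, the form of Rpl3 found in heart and skeletal muscle, had 6 to 24 counts per library and 0.249 CPM per kb. Rpl39l, known from testis, had 0 to 2 counts and was not tested. Of the 6 tested paralogs 0 passed the test, with log2 fold changes from -0.036 (Rps4l) to 0.054 (Rpl22l1).

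Rps27l and Rps27 encode near-identical proteins from separate genes, at chr9:66946086-66949516 and chr3:90212522-90213651. Their coding sequences, 252 bases each in GENCODE M21, differ at 60 positions (76.2% identity). The first 180 bases are given with the 45 differing letters in capitals, since this pair shows a paralog counted above its standard partner.
Rps27: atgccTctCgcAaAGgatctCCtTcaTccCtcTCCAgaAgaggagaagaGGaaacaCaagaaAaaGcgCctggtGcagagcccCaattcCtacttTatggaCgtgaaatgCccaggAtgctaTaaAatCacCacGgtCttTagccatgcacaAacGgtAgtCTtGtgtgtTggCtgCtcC
Rps27l: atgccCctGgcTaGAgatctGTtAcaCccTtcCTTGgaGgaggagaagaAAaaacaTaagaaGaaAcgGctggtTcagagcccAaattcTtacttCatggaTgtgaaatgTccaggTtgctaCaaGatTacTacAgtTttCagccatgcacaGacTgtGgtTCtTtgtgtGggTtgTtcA
Rps27l ran at 9.20 ± 0.507 CPM in WT and 9.43 ± 0.779 CPM in cKO (SD, n = 6), a log2 fold change of 0.043 (edgeR adjusted p = 0.820), and 22.4% of its stretches are shared with another gene.

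Outside the naming rule, 3 more ribosomal genes were tested and 0 were called. Gnb2l1, now called Rack1, a scaffold on the small subunit, measured 132.6 ± 2.09 CPM in WT and 137.4 ± 6.21 CPM in cKO (SD, n = 6), a log2 fold change of 0.052 (edgeR adjusted p = 0.417). Fau, a fusion of a ubiquitin-like protein with Rps30, had a log2 fold change of -0.0071. Of 15 elongation factors and other genes with known TOP mRNAs, 0 were called and 7 had a positive estimate. Of 28 initiation factors 0 were called and 18 were positive. Of 23 genes of mTOR signalling and of other kinases, such as Rps6ka1 to Rps6ka3, Mknk1 and Mknk2, 0 were called and 16 were positive.

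Of 50 tested genes of ribosome production, 1 rose and 0 fell. The list takes in Myc, Mycn and genes of RNA polymerase I beside assembly and maturation factors. Nop56, a core protein of the box C/D particles that guide methylation of ribosomal RNA, ran from 84.8 over 86.3 to 90.3 CPM in WT and from 89.9 over 95.2 to 95.3 CPM in cKO. Of the cKO libraries 5 lay above all WT libraries. The log2 fold change was 0.11 (SE 0.024, edgeR quasi-likelihood adjusted p = 0.0119), or 8.17%. The share of higher calls among all genes was 1.27%. The 34 tested short genes of oxidative phosphorylation, whose mRNAs resemble those of ribosomal proteins in length and abundance, had 5 positive estimates and a median of -0.036, with 0 called.

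Depth ran from 23.8 to 62.1 M counts per library (M, 1e6), with 36.3 ± 13.9 M in WT and 49.1 ± 10.01 M in cKO (SD, n = 6). Gabra6, which the driver is named after, fell by 23.3% in cKO (edgeR quasi-likelihood adjusted p = 1.45e-05). Crhr1 itself did not separate the groups, at 97.6 ± 4.31 and 98.8 ± 6.00 CPM (SD, n = 6; log2 fold change 0.018, edgeR adjusted p = 0.889), and a count over the whole gene cannot check a deletion whose extent is not given. Of the markers of other cell types, 2 of 8 microglial genes rose (Cx3cr1 and Csf1r), 4 of the 8 had an unadjusted p under 0.05 in edgeR's test, and all 8 estimates were positive. Of 8 granule cell genes 1 rose and 3 fell. Among all tested genes 1.27% rose and 1.38% fell. Of 10 tested forebrain and midbrain markers 1 rose, and the list had a summed level of 17.3 to 20.9 CPM in WT and 15.4 to 22.2 CPM in cKO. The part of the microglial and granule cell genes in the members' levels was not tested.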

How the data were processed

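Cerebellar mRNA libraries of 6 WT and 6 cKO mice were grouped by the genotype in the labels, and replicate numbers follow the order of deposit. The authors deposited raw counts per gene symbol. They also deposited a comparison with log2 fold changes and adjusted p-values per gene, per the file headers. The authors used STAR, DESeq2 and the mm10 build, per the submitters' processing notes, which give no versions. The counting tool, its annotation and its use of strand are not given in the sources used.

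Counts were filtered with filterByExpr, scaled by TMM and tested with edgeR 4.0.16 (quasi-likelihood, R 4.3.3) over 15467 genes, with Benjamini-Hochberg adjustment at 0.05 and no covariate. CPM values use TMM library sizes, and log2 CPM adds a prior count of 0.5. The script was tested on simulated counts. Depth was 23.8 to 62.1 M counts (M, 1e6) per library, and the most alike of 30 pairs within a group differed by 2.68 times counting noise (chi-square per degree of freedom), so each library was counted as a sample. Alternatives used DESeq2 1.42.0, limma 3.58.1 and sva 3.50.0. Transcript models, lengths and 50-base stretches came from GENCODE M21, on both strands, and start sites from RefSeq. Columns left unmatched to a sample numbered 0, and rows without a gene name 0.

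Members and lists were chosen with earlier results of these data known. Named members were those with the 6 smallest p in each direction, the 6 highest and 4 lowest levels, the 6 largest library SDs at 10 CPM or above, the paralogs and the ribosomal genes outside the rule. Others were named for their known role after their values were seen. Certain genes within this choice are not reported here one by one and are not drawn, but remain in every count, sum and median.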

Additional observations from a re-analysis of the deposited data

Results flagged for a closer look

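Within a group of 6 libraries, 1 library stood apart from the rest for 6 of the 66 sets of values examined. Chance gives such a gap in about 1 in 20 groups, so some of these are what chance would give. Rps3a1 had 148.5 CPM in cKO 2, while the next cKO library had 112.3 CPM. Rps16 had 63.6 CPM in cKO 5, where the next was 56.9 CPM, and Rpl22l1 had its lowest cKO value, 35.7 CPM, in the same library, under 37.7 CPM in the next. Rpl27a had 112.2 CPM in cKO 4, above 106.7 CPM. Rpl3 had 244.6 CPM in cKO 1, below 252.9 CPM. Among WT libraries Rps28 had 32.6 CPM in WT 6, above 29.9 CPM.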

How the results depend on the processing

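Beside the reported analysis 23 settings were run, 12 of them leaving out 1 library each. Leaving out both cKO 4 and cKO 5, and keeping only members above 1 CPM, were chosen after seeing the data. Members called numbered 0 in every setting but that without WT 6. There 1 of 82 was called, higher in cKO, beside 2.35% of all genes called in either direction. The range over libraries left out was thus 0 to 1 for members called and for members higher, and 0 to 0 for members lower. The median log2 fold change ran from 0.0052 to 0.030 for the large and 0.024 to 0.044 for the small subunit when 1 library was left out. With surrogate variables it was 0.0062 and 0.016. The scalings moved the median of all genes by at most 0.0022.

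Signs changed only for named genes that were not called in any setting, and the cause was not tested. Rpl3l was at 0.0055 with DESeq2 and Rps19bp1 at -0.00079 with limma-voom. With surrogate variables Rpl21 was at -0.0042, Rpl35 at 0.0026, Rpl36al at -0.00019, Rps16 at -0.024 and Rps19bp1 at -0.015. With thinned counts Fau was at 0.0100 and Rps4l at 0.024. Without both cKO 4 and cKO 5, Rpl36al was at -0.0055, Rpl7l1 at -0.0020, Rps16 at -0.019 and Rps19bp1 at -0.031. With 1 library left out, Fau ranged from -0.032 to 0.0064, Rpl36al from -0.0057 to 0.020, Rpl3l from -0.13 to 0.16, Rpl8 from -0.025 to 0.0092, Rps16 from -0.0093 to 0.050, Rps19bp1 from -0.015 to 0.033 and Rps29 from -0.055 to 0.00091.

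The authors' counting of reads with several matches is not known, and this limits every member with copies. Counts of Rpl30, Rpl34, Rps27, Rpl3l and Rpl39l are too low for a precise fold change. No paired analysis was possible because the replicate numbers follow the order of deposit and pair no samples.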
